A study of Homo sapiens with 6 samples.

Results

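Matrix metalloproteinases (MMPs) and tissue inhibitors of metalloproteinases (TIMPs) were followed at the RNA level in U87, an established line of human glioblastoma cells, after treatment with rutaecarpine, an alkaloid of Evodia rutaecarpa that activates the aryl hydrocarbon receptor (AhR). The members were the 10 genes MMP1, MMP2, MMP3, MMP9, MMP10, MMP14, TIMP1, TIMP2, TIMP3 and TIMP4, taken by gene name from a table of 60671 genes. All 10 were found, each in 1 row. The study compared 3 libraries of cells given 100 μM rutaecarpine for 48 h with 3 libraries of cells given the solvent, 0.1% DMSO, for the same time, and by the dilution given in the methods the drug-treated cells also received DMSO. Both were dosed in serum-free medium, and both come from the same cell line, so the comparison holds for 1 line at 1 dose and 1 time. The values are TPM, a transcript abundance corrected for gene length and brought to a fixed total per library, so levels of different genes in a library can be set side by side.

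MMPs are zinc-dependent endopeptidases that are made as inactive proenzymes and cut collagens, fibronectin, laminins and other matrix proteins around the cell. TIMPs bind to the active site of MMPs and block it, so the ratio of enzyme to inhibitor bears on how much matrix is cut, and in glioblastoma this system is known for its part in invasion. MMP14 is anchored in the cell membrane and, with TIMP2 as adaptor, activates the proenzyme of MMP2. RNA levels do not show how much active enzyme was present.

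The study looked for the AhR response element, the DRE core CACGCNA or its reverse complement TNGCGTG, in longer promoter stretches of other migration-related genes. The promoters of the members are shown here for the same letters and for the AP-1 element TGAGTCA or TGACTCA, which is best known from MMP promoters. A RefSeq promoter window, from 250 bases before to 50 bases after the gene start on GRCh38.p14, was at hand for 5 members, MMP10, MMP14, TIMP1, TIMP3 and TIMP4. For MMP1, MMP2, MMP3, MMP9 and TIMP2 no window was at hand, so nothing is said here of their promoters. The RefSeq starts of TIMP1, MMP14 and TIMP3 lie 123, 28 and 4 bases downstream of the gene starts in GENCODE release 29, that of TIMP4 lies 439 bases downstream, and those of MMP10 coincide. Below is the part of each window before both starts, for the members that rose and had a window and for MMP10, a neighbour of MMP1. They are written 5′ to 3′ on the strand of the gene, and capitals mark a motif. The stretch of TIMP1 is chrX:47582186-47582312 (plus strand), that of TIMP3 is chr22:32801455-32801700 (plus strand), that of MMP14 is chr14:22836335-22836556 (plus strand) and that of MMP10 is chr11:102780629-102780878 (minus strand).
TIMP1: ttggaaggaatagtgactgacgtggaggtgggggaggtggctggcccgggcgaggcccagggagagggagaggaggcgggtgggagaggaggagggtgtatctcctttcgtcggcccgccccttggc
TIMP3: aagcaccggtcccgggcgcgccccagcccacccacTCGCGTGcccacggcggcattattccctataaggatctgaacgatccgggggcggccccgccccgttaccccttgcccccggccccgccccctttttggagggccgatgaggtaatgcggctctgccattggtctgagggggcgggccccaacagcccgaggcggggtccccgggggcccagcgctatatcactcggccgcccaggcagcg
MMP14: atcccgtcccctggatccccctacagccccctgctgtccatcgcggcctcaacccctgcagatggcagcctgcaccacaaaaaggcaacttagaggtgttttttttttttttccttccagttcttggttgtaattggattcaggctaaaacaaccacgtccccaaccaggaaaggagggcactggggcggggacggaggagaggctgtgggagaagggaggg
MMP10: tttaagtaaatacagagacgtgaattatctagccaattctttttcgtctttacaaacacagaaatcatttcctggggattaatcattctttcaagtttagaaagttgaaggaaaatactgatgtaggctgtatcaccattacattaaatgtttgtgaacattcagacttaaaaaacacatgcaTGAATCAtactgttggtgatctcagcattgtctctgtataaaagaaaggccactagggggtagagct

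The DRE core was found in the windows of TIMP1 and TIMP3. In TIMP1 the match TAGCGTG lies 38 to 32 bases before the RefSeq start, at chrX:47582398-47582404, which is inside the gene as GENCODE annotates it and therefore outside the stretch printed above. In TIMP3 the match TCGCGTG lies 215 to 209 bases before the RefSeq start and before the GENCODE start too. Of 34943 promoter windows in the table, 5.5% held the DRE core on either strand, and 36.5% held its inner letters GCGTG or CACGC. None of the 5 windows held TGAGTCA or TGACTCA, which 4.96% of all windows did. With the looser letters TGANTCA, found in 7.72% of windows and overlapping the stricter form, MMP10 had the match TGAATCA, 67 to 61 bases before its start. These matches describe letters in a window and not binding. Forms of the AP-1 element outside these letters were not searched, so a window without a match may still hold one.

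A second pair of sequences bears on how far MMP3 and MMP10 can be told apart. RSEM, with which the TPM were made, assigns a read that fits more than 1 gene in parts. Among the 45 pairs of members, only MMP3 and MMP10 shared any run of 50 bases in their GENCODE release 29 transcripts, 2.88% of the 50-base runs of MMP3 and 3.36% of those of MMP10. The longest shared run has 96 bases and lies in the coding sequence. It is shown in a window of 136 coding bases, and capitals mark the 3 bases of the window that differ. Each window crosses an exon junction on the minus strand of chromosome 11, within chr11:102842263-102842549 for MMP3 and chr11:102778733-102779331 for MMP10 (GRCh38).
MMP3: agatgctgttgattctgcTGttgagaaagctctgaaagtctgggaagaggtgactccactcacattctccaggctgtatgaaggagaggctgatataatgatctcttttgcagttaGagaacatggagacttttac
MMP10: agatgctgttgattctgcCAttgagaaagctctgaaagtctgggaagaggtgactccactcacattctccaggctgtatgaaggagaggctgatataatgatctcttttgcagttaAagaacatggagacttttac

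Of the 6 libraries, control replicate 3 stood apart. Its median log2(TPM + 1) over tested genes was 3.56, against 3.81 to 4.0 in the others, and 13758 genes had a TPM of at least 1 in it against 14105 to 14475. Rutaecarpine replicate 2 had the next lowest values, and across genes its deviations from its group went with those of control replicate 3 (Pearson's r 0.387 over 14377 genes, which are not independent). The values of the tested members and the counts of the lists are therefore also given without control replicate 3. The labels do not say whether the replicates were separate cultures, so p values measure the spread between these libraries, which may be technical.

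The label of the cells was checked against marker genes. All 4 mesenchymal glioblastoma markers were tested, and their summed level was 10027 to 11119 TPM in the controls and 8456 to 9140 TPM after rutaecarpine. VIM fell from 7498 ± 499 to 4857 ± 381 TPM (SD, n = 3; adjusted p = 0.00894 by limma), while CHI3L1 and CD44 did not pass. The 6 glial markers summed to 24.0 to 26.2 TPM in the controls and 20.1 to 22.7 TPM after rutaecarpine. Of these, NES fell from 19.5 to 13.2 TPM and OLIG2 rose from 1.59 to 3.63 TPM (adjusted p = 0.0491 and 0.0262 by limma), GFAP had 3.98 and 4.67 TPM, S100B and SOX2 lay below 1 TPM and AQP4 was listed at 0. The 4 leukocyte markers summed to 452 to 511 TPM and 319 to 357 TPM, nearly all of it CD68, a lysosomal protein gene, which fell from 473 to 342 TPM (adjusted p = 0.0178 by limma). PTPRC, CD14 and ITGAM were below 1 TPM in each group mean. The 3 endothelial markers summed to 1.04 to 1.17 TPM and 1.20 to 2.20 TPM, with PECAM1 at 0.633 and 1.17 TPM. The 4 epithelial markers summed to 9.28 to 11.4 TPM and 9.02 to 13.4 TPM, with KRT8 at 8.80 and 9.55 TPM and EPCAM, KRT18 and CDH1 below 1 TPM in each group mean. The identity markers VIM, NES, CD68 and OLIG2 thus moved in the same libraries as the members, and their part in the results was not tested.

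Of the 10 members, 8 reached 1 TPM in 3 or more libraries and were tested with limma on log2(TPM + 1), with Benjamini-Hochberg adjustment over all 14377 genes tested. MMP9 and MMP10 were under this filter. At an adjusted p of at most 0.05, 4 of the 8 tested members rose (MMP1, MMP14, TIMP1, TIMP3) and 2 fell (MMP3, TIMP2), while MMP2 and TIMP4 did not pass. Among all genes tested, 9.29% passed, 4.60% upward and 4.68% downward. With an absolute log2 fold change above 1 as well, the cutoff of the study for DEGs (differentially expressed genes), MMP1 and MMP14 were left, both higher. This cutoff left 3.51% of all genes tested in either direction and 2.01% upward. The study, by its own tests, also lists MMP1 and MMP14 among its up-regulated DEGs related to migration. The ranges of the groups were apart for 7 of the 8 tested members, the exception being MMP2, and for 33.3% of all genes tested. In 5 of these members the rutaecarpine range was the higher one, as in 19.3% of all genes tested, and in 2 it was the lower one, as in 14.0%. In RNA from whole cultures, a change in the number of cells that express a gene and a change in RNA per cell cannot be told apart.

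**Figure D1:**
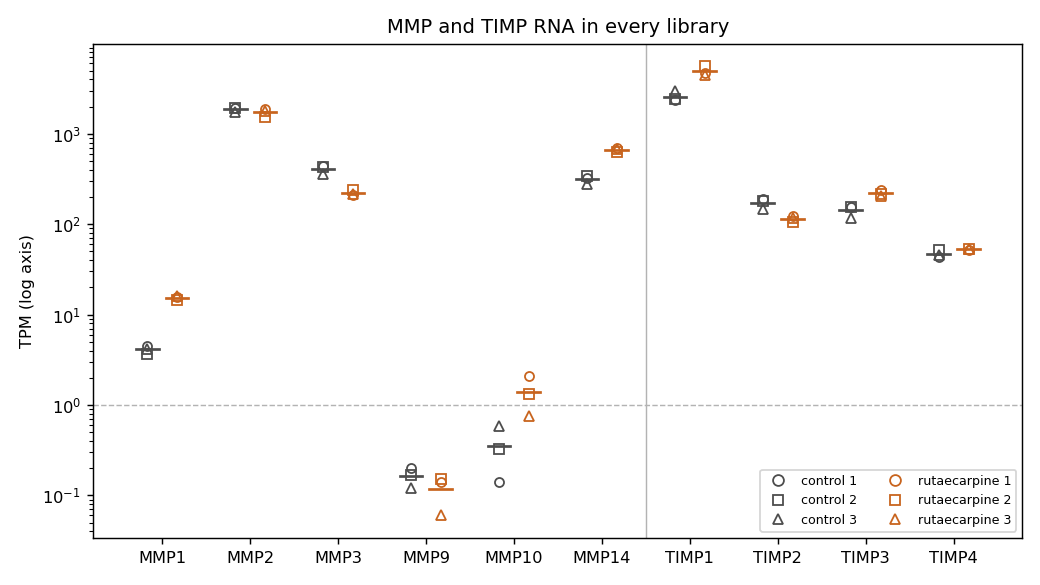
TPM of the 10 members in every library on a log axis, control in grey and rutaecarpine in orange, with circles, squares and triangles for replicates 1, 2 and 3. Horizontal bars are group means and the dashed line is a TPM of 1; MMP1, MMP14, TIMP1 and TIMP3 are higher after rutaecarpine, MMP3 and TIMP2 are lower, and MMP9 lies below 1 TPM in all libraries.

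Among the collagenases and stromelysins, MMP1 and MMP3 moved in opposite directions. MMP1 (ENSG00000196611), the interstitial collagenase, which cuts the triple helix of fibrillar collagens, lies on chromosome 11 from 102789920 to 102798160 on the minus strand (GRCh38, GENCODE release 29). It had 4.54, 3.68 and 4.16 TPM in control replicates 1, 2 and 3 and 15.56, 14.49 and 16.27 TPM in rutaecarpine replicates 1, 2 and 3. All 3 rutaecarpine libraries lay above all 3 controls. The group means were 4.13 ± 0.431 and 15.4 ± 0.896 TPM (SD, n = 3), a ratio of 3.74. The log2 fold change of MMP1 was 1.68 (standard error, SE, 0.15; adjusted p = 0.00108 by limma) and 1.69 without control replicate 3. It was the largest change among the tested members, in the least abundant of them in both groups.

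MMP3 (ENSG00000149968), stromelysin-1, which cuts proteoglycans, fibronectin and laminin and activates other pro-MMPs, lies in the same cluster on the minus strand from 102835801 to 102843803. Its level was 446.13, 428.93 and 362.84 TPM in control replicates 1, 2 and 3 and 207.86, 236.29 and 217.1 TPM in the rutaecarpine replicates in the same order. The lowest control library, replicate 3, was still above the highest treated one. MMP3 fell from 413 ± 44.0 to 220.4 ± 14.5 TPM (SD, n = 3), to 0.534 of the control level. Its log2 fold change was -0.90 (SE 0.10, adjusted p = 0.00284 by limma) and -0.99 without control replicate 3. MMP3 RNA was thus 101 ± 14.8 times as abundant as MMP1 RNA in the control libraries and 14.3 ± 1.71 times in the treated ones (SD of the ratios per library, n = 3).

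MMP10 (ENSG00000166670), stromelysin-2, the close relative of MMP3 whose shared stretch is printed above, lies on the other side of MMP1, from 102770503 to 102780628 on the minus strand. It was weakly expressed, with 0.14, 0.33 and 0.58 TPM in control replicates 1, 2 and 3 and 2.1, 1.33 and 0.75 TPM in rutaecarpine replicates 1, 2 and 3. The groups did not overlap. The exact permutation test of the TPM gave p = 0.1 (two-sided), the smallest that 3 libraries against 3 allow. In a limma fit without the filter on low TPM, the log2 fold change of MMP10 was 0.80 (SE 0.25, adjusted p = 0.206). MMP3, with which MMP10 shares the printed stretch, was far more abundant, and the part of shared reads in the MMP10 values was not tested. MMP3 and MMP10 differed in opposite directions between the groups.

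**Figure D2:**
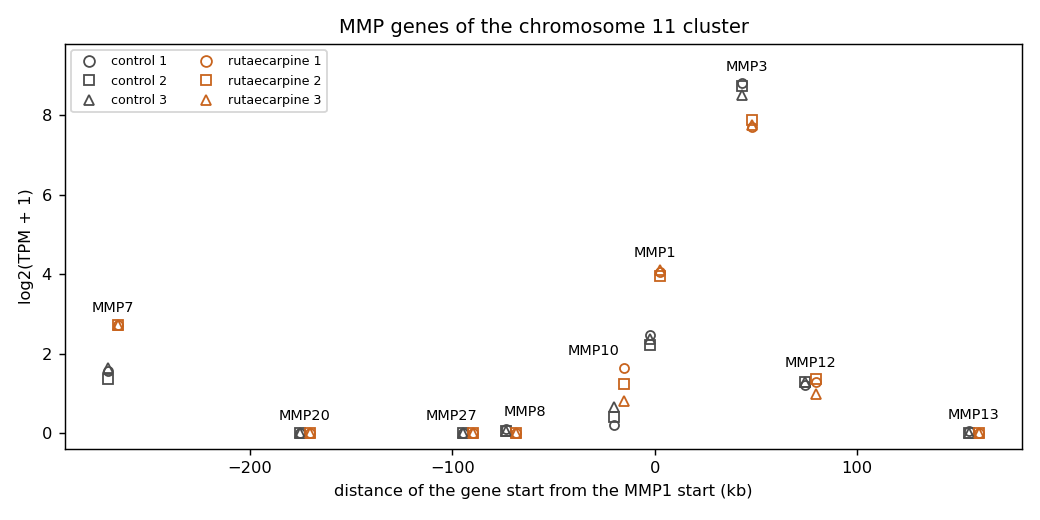
Level of the 9 MMP genes of the chromosome 11 cluster as log2(TPM + 1), by the distance in kb of each gene start from the MMP1 start, with 1 point per library (control grey, rutaecarpine orange; circles, squares and triangles for replicates 1, 2 and 3). MMP7, MMP10 and MMP1 are higher after rutaecarpine, MMP3 is lower, and MMP8, MMP13, MMP20 and MMP27 lie at or near 0.

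The cluster holds further MMP genes, all on the minus strand. MMP7, matrilysin, starts at -267.4 kb from the MMP1 start and had 1.96, 1.56 and 2.11 TPM in the controls and 5.63, 5.58 and 5.54 TPM after rutaecarpine. It rose by a log2 fold change of 1.20 (SE 0.16, adjusted p = 0.00551 by limma), and by 1.26 without control replicate 3 (adjusted p = 0.00197 by limma). MMP12, the macrophage elastase, starts at 76.9 kb from the MMP1 start, beyond MMP3. It had 1.41 ± 0.0751 and 1.32 ± 0.314 TPM (SD, n = 3), with overlapping groups. MMP8 and MMP13, the other collagenases, did not exceed 0.07 and 0.03 TPM in any library, and MMP20 and MMP27 were listed at 0 in all 6. WTAPP1, a pseudogene RNA from the opposite strand that overlaps MMP10, MMP1 and MMP3, had at most 0.14 TPM. Of 16 host and neighbouring genes of the members, 7 were tested and MMP7 was the one that passed, also without control replicate 3. Over all genes, 9.29% passed with all libraries and 2652 of 14188 without control replicate 3.

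The gelatinases cut denatured collagen and the type IV collagen of basement membranes. MMP2 (ENSG00000087245, chromosome 16, 55389700 to 55506691, plus strand) was the most abundant MMP here, 75th among the tested genes by its control mean. Its level was 1925.49, 1947.21 and 1760.67 TPM in control replicates 1, 2 and 3 and 1864.58, 1534.23 and 1771.02 TPM in the rutaecarpine replicates. The groups overlapped, with the lowest control in replicate 3 and the lowest treated value in replicate 2. The means were 1878 ± 102 and 1723 ± 170 TPM (SD, n = 3), and the log2 fold change of -0.13 had a 95% interval from -0.35 to 0.10 (adjusted p = 0.464 by limma), and it was -0.17 without control replicate 3. MMP9 (ENSG00000100985, chromosome 20, 46008908 to 46016561, plus strand), the other gelatinase, ranged from 0.06 to 0.20 TPM over the 6 libraries. Its means were 0.163 ± 0.0404 and 0.117 ± 0.0493 TPM (SD, n = 3; exact permutation p = 0.4, two-sided). MMP9 RNA was near the lower end of the scale in both groups, where TPM values give no read number to judge a difference by.

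MMP14 (ENSG00000157227, chromosome 14, 22836557 to 22849027, plus strand) encodes the membrane-anchored collagenase MT1-MMP. Its level was 321.11, 341.58 and 275.68 TPM in control replicates 1, 2 and 3 and 696.65, 627.52 and 677.46 TPM in rutaecarpine replicates 1, 2 and 3. Every treated library lay above every control. The means were 313 ± 33.7 and 667 ± 35.7 TPM (SD, n = 3), a ratio of 2.13. The log2 fold change was 1.09 (SE 0.10, adjusted p = 0.00122 by limma), and 1.01 without control replicate 3. No annotated gene overlaps MMP14.

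TIMP1 (ENSG00000102265, chromosome X, 47582313 to 47586789, plus strand), a secreted inhibitor of most soluble MMPs that inhibits MMP14 poorly, was the most abundant member in both groups. Its level was 2394.29, 2407.92 and 2958.45 TPM in control replicates 1, 2 and 3 and 4717.5, 5565.46 and 4494.38 TPM in the rutaecarpine replicates. The highest control, replicate 3, stayed below the lowest treated library. TIMP1 rose from 2587 ± 322 to 4926 ± 565 TPM (SD, n = 3), a ratio of 1.90 and a log2 fold change of 0.93 (SE 0.12, adjusted p = 0.00532 by limma), and by 1.03 without control replicate 3. With the libraries centred on their medians the log2 fold change of TIMP1 was 0.84 and no longer passed (adjusted p = 0.0908 by limma). TIMP1 lies within SYN1 on the opposite strand, and SYN1 had at most 1.04 TPM.

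TIMP2 (ENSG00000035862, chromosome 17, 78852977 to 78925387, minus strand), the inhibitor that also serves as adaptor for the activation of pro-MMP2 by MMP14, moved the other way. Its level was 189.59, 181.5 and 148.13 TPM in control replicates 1, 2 and 3 and 123.29, 106.02 and 115.91 TPM in the rutaecarpine replicates. All treated libraries lay below the lowest control, which was replicate 3. TIMP2 fell from 173 ± 22.0 to 115 ± 8.67 TPM (SD, n = 3), with a log2 fold change of -0.58 (SE 0.12, adjusted p = 0.025 by limma). Without control replicate 3 the log2 fold change was -0.69 (adjusted p = 0.00138 by limma). Leaving out any other single library ended the call. The adjusted p by limma was 0.0855 and 0.0908 without control replicates 1 and 2. It was 0.0703, 0.103 and 0.104 without rutaecarpine replicates 1, 2 and 3. In these fits the log2 fold change of TIMP2 stayed between -0.63 and -0.51. All genes passing in them numbered between 500 and 714, against 1335 with all libraries.

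An RNA annotated opposite to TIMP2 (ENSG00000267601) shares all of its 367 exon bases with TIMP2 exons. It was listed at 42.69, 36.79 and 6.76 TPM in control replicates 1, 2 and 3 and at 35.01, 4.55 and 36.67 TPM in rutaecarpine replicates 1, 2 and 3, so it was low in control replicate 3 and rutaecarpine replicate 2 and did not separate the groups. Whether the counting used strand is not given in the sources used here, and without strand the reads of such a pair cannot be told apart. Its part in the TIMP2 result was not tested. With both of these libraries left out, an alternative chosen after seeing the data, the log2 fold change of TIMP2 was -0.63 (adjusted p = 0.00181 by limma).

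TIMP3 (ENSG00000100234, chromosome 22, 32801701 to 32863043, plus strand), the inhibitor that binds to the matrix and also blocks ADAM proteases, had 155.8, 156.6 and 117.35 TPM in control replicates 1, 2 and 3. In rutaecarpine replicates 1, 2 and 3 it had 240.24, 215.16 and 205.57 TPM. The groups did not overlap, and the lowest control was replicate 3. TIMP3 rose from 143 ± 22.4 to 220.3 ± 17.9 TPM (SD, n = 3), a log2 fold change of 0.63 (SE 0.13, adjusted p = 0.0294 by limma), and of 0.49 without control replicate 3 (adjusted p = 0.00559 by limma). As for TIMP2, leaving out any other single library ended the TIMP3 call. The adjusted p by limma was 0.056 and 0.0537 without control replicates 1 and 2. It was 0.125, 0.103 and 0.0906 without rutaecarpine replicates 1, 2 and 3. In these fits, where fewer genes passed in the whole table, the log2 fold change of TIMP3 stayed between 0.56 and 0.70. TIMP3 lies within SYN3 on the opposite strand, which had at most 0.5 TPM.

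TIMP4 (ENSG00000157150, chromosome 3, 12153051 to 12159351, minus strand), the inhibitor with the narrowest tissue range, had 42.98, 51.48 and 45.72 TPM in the controls and 52.41, 52.72 and 52.57 TPM after rutaecarpine. The groups did not overlap, but the highest control came close to the treated libraries. The log2 fold change of 0.17 had a 95% interval from -0.06 to 0.40 (adjusted p = 0.341 by limma), and it was 0.16 without control replicate 3. TIMP4 lies within SYN2, which had at most 0.86 TPM.

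**Figure D3:**
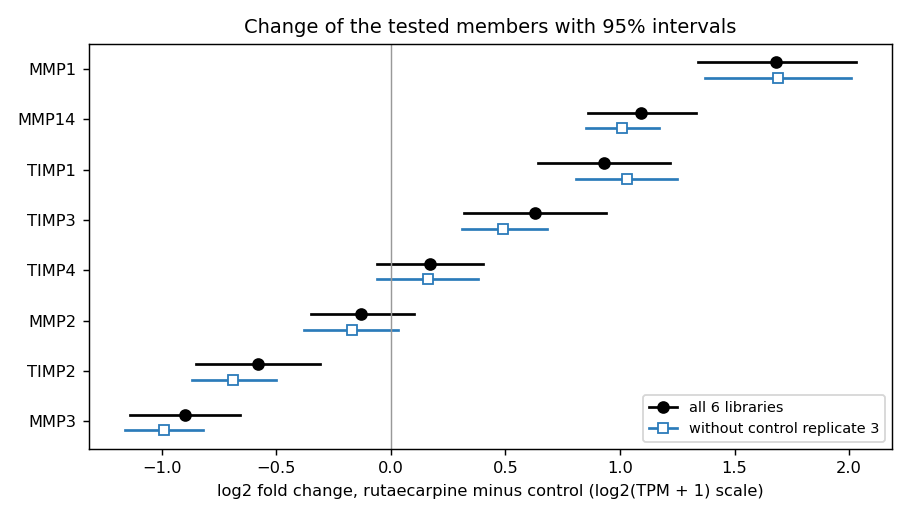
Log2 fold change (rutaecarpine minus control, log2(TPM + 1) scale) of the 8 tested members with 95% intervals from limma, with all 6 libraries (black circles) and without control replicate 3 (blue squares). With all libraries MMP1 has the highest value at 1.68 and MMP3 the lowest at -0.90, and the intervals of TIMP4 and MMP2 include 0 in both fits.

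On the level scale, the order of the members in the control group was TIMP1, MMP2, MMP3, MMP14, TIMP2, TIMP3, TIMP4, MMP1, MMP10 and MMP9. Neighbours in this order had separate ranges over the 3 libraries except TIMP2 and TIMP3, and MMP10 and MMP9. After rutaecarpine, MMP14 stood above MMP3 and TIMP3 above TIMP2, with the rest of the order kept. MMP3 and TIMP3 were then close, at 220.4 and 220.3 TPM with overlapping ranges, and all other neighbours were apart.

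The summed TPM of the 6 MMPs was 2608 ± 177 in the controls and 2628 ± 192 after rutaecarpine, and that of the 4 TIMPs was 2949.9 ± 277 and 5314 ± 558 (SD, n = 3). The MMP sum was 2698, 2722 and 2404 TPM in control replicates 1, 2 and 3 and 2787, 2414 and 2683 TPM in the rutaecarpine replicates, so the groups overlapped. The TIMP sum was 2783, 2798 and 3269.6 TPM in the controls and 5133, 5939 and 4868 TPM after rutaecarpine, with no overlap. The ratio of the MMP sum to the TIMP sum was accordingly 0.969, 0.973 and 0.735 in control replicates 1, 2 and 3 and 0.543, 0.406 and 0.551 in the rutaecarpine replicates. The lowest ratio of each group was that of control replicate 3 and of rutaecarpine replicate 2. TIMP1 made up 87.5 ± 2.55% of the TIMP sum in the controls and 92.6 ± 0.946% after rutaecarpine (SD, n = 3), and with TIMP1 left out the ratio was 7.22 ± 0.439 against 6.78 ± 0.364 with overlapping groups.

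**Figure D4:**
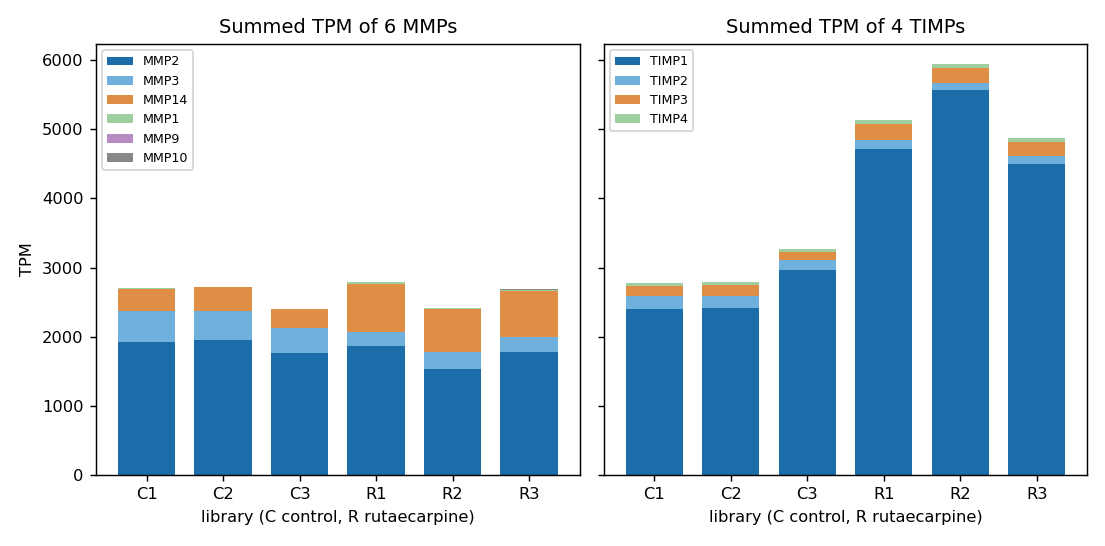
Summed TPM of the 6 MMPs (left) and of the 4 TIMPs (right) in each library, stacked by gene, with C1 to C3 for the control and R1 to R3 for the rutaecarpine replicates. The MMP bars stay between 2404 and 2787 TPM while the MMP14 part grows, and the TIMP bars of the treated libraries are all above those of the controls.

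The makeup of the MMP sum differed between the groups. MMP2 made up 72.1 ± 1.03% of it in the controls and 65.5 ± 1.74% after rutaecarpine, MMP3 made up 15.8 ± 0.723% and 8.45 ± 1.20%, and MMP14 made up 12.0 ± 0.544% and 25.4 ± 0.518% (SD, n = 3). MMP1 was below 1% in both groups. The ratio of MMP14 to TIMP2, the pair that handles pro-MMP2 at the cell surface, was 1.69, 1.88 and 1.86 in control replicates 1, 2 and 3 and 5.65, 5.92 and 5.84 in the treated ones. Control replicate 3 lay between the other controls for this ratio. The ratio of MMP2 to TIMP2 was 10.9 ± 0.881 and 15.0 ± 0.429, and that of MMP1 to TIMP1 was 0.00161 ± 0.000255 and 0.00317 ± 0.00052 (SD, n = 3). MMP3 to TIMP1 went the other way, from 0.162 ± 0.0346 to 0.0449 ± 0.00302. None of the ratios in this paragraph had overlapping groups. These are ratios of RNA levels, which do not depend on the scaling between libraries.

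Of the 17 other MMPs, 6 were tested, and MMP7 rose while MMP12, MMP15, MMP16, MMP17 and MMP19 did not pass, with or without control replicate 3. The most abundant of these, MMP19 and MMP17, had 11.1 ± 0.626 and 8.49 ± 0.409 TPM in the controls and 12.9 ± 0.970 and 11.3 ± 1.26 TPM after rutaecarpine (SD, n = 3). The median log2 fold change of the 6 tested genes was 0.12, against 0.08 over all genes tested. Of all genes tested, 9.29% passed.

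ADAM and ADAMTS proteases are related metalloproteinases that shed membrane proteins and cut proteoglycans. Of 25 listed, 20 were tested, with a median log2 fold change of 0.12. By limma, 2 rose and 1 fell. ADAMTS5, an aggrecan-cutting enzyme, rose from 7.76 ± 3.36 to 26.6 ± 6.05 TPM, ADAMTS7 rose from 2.49 ± 0.110 to 7.45 ± 0.709 TPM, and ADAM15 fell from 61.4 ± 1.47 to 36.1 ± 1.91 TPM (SD, n = 3). Without control replicate 3, 7 of the list passed, 4 higher and 3 lower. Over all genes tested, 9.29% passed with all libraries and 2652 of 14188 passed without control replicate 3.

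The list of other inhibitors, clearance receptors and inducers had 10 genes, of which 6 were tested. TFPI2, a secreted Kunitz-type inhibitor of plasmin and other serine proteases, rose from 754 ± 68.0 to 4539.7 ± 218 TPM (SD, n = 3), a log2 fold change of 2.59 (adjusted p = 3.4e-05 by limma). PCOLCE, which speeds the processing of procollagen, fell from 364 ± 43.0 to 167 ± 7.97 TPM. RECK, a membrane-anchored MMP inhibitor, BSG, which induces MMPs in neighbouring cells, LRP1, an endocytic receptor that clears MMPs, and SPOCK1 did not pass. Without control replicate 3, 4 of this list passed, 1 higher and 3 lower, LRP1 and SPOCK1 being added. Passing over all genes were 2652 of 14188 in that fit, against 9.29% with all libraries.

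Of 13 activators of pro-MMPs, 8 were tested. CTSL, a lysosomal cysteine protease, rose from 321 ± 15.9 to 695 ± 30.5 TPM, and PLAUR, the urokinase receptor, rose from 150.3 ± 2.70 to 236 ± 15.6 TPM (SD, n = 3). CTSB, another cysteine protease, fell from 1285 ± 43.9 to 1009.8 ± 68.0 TPM. PLAU, which encodes urokinase, and FURIN, which cleaves pro-MMP14, did not pass. The median log2 fold change of the 8 was -0.20. Without control replicate 3 the same 3 passed, and after centring each library on its median 1 of this list passed. The counts over all genes were 1335 of 14377 (9.29%) with all libraries, 2652 of 14188 without control replicate 3 and 1379 of 14377 after centring.

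Of 21 matrix substrates, 12 were tested, 3 fell and 0 rose by limma at an adjusted p of at most 0.05, with a median log2 fold change of -0.32. At an unadjusted p under 0.05, 1 substrate was higher, VCAN, which encodes the proteoglycan versican (log2 fold change 1.03, adjusted p = 0.0864 by limma). At the same cutoff HSPG2 was lower, besides those that fell (log2 fold change -0.35, adjusted p = 0.109 by limma). The fibrillar collagen genes COL1A2 and COL1A1 had log2 fold changes of -1.22 and -1.17, and FN1, which encodes fibronectin, fell from 6025 ± 895 to 3241 ± 367 TPM (SD, n = 3). Without control replicate 3, 6 of the list passed, 5 lower and 1 higher, the higher one being VCAN (log2 fold change 0.67, adjusted p = 0.0134 by limma). Among all genes, 9.29% passed with all libraries and 2652 of 14188 without control replicate 3. The proteins of COL1A1 and COL1A2, not their RNA, are cut by MMP1 and MMP14, whose RNA rose in the same libraries. A link between these RNA changes was not tested.

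AP-1 and ETS factors include the transcription factors best known for driving MMP1 and MMP3. A link between the factors listed here and the members was not tested. Of 21 listed, 20 were tested, with a median log2 fold change of 0.44. By limma 8 of the 20 rose, as did 4.60% of all genes tested. The largest rises were those of ATF3, from 35.6 ± 5.40 to 93.4 ± 14.0 TPM, MAF, from 2.55 ± 0.781 to 7.03 ± 0.873 TPM, MAFF, from 34.9 ± 2.47 to 78.9 ± 4.19 TPM, and FOSB, from 1.36 ± 0.268 to 3.96 ± 0.490 TPM (SD, n = 3). JUN, JUNB, JUND and ETV5 rose with log2 fold changes of 0.90, 0.47, 0.41 and 0.56. FOS, FOSL1, ETS1 and ETS2 did not pass. The number passing in either direction was 9 of 20, against 1335 of 14377 (9.29%) for all genes tested. Without control replicate 3 it was 12, where 2652 of 14188 genes passed. The list count was 3 and 5 without control replicates 1 and 2, and 3, 4 and 3 without rutaecarpine replicates 1, 2 and 3. All genes passing in those fits were fewer too, at 670, 714, 564, 603 and 500 in the same order. With no filter on low TPM the list count was 5, where 892 of 29330 genes passed.

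**Figure D5:**
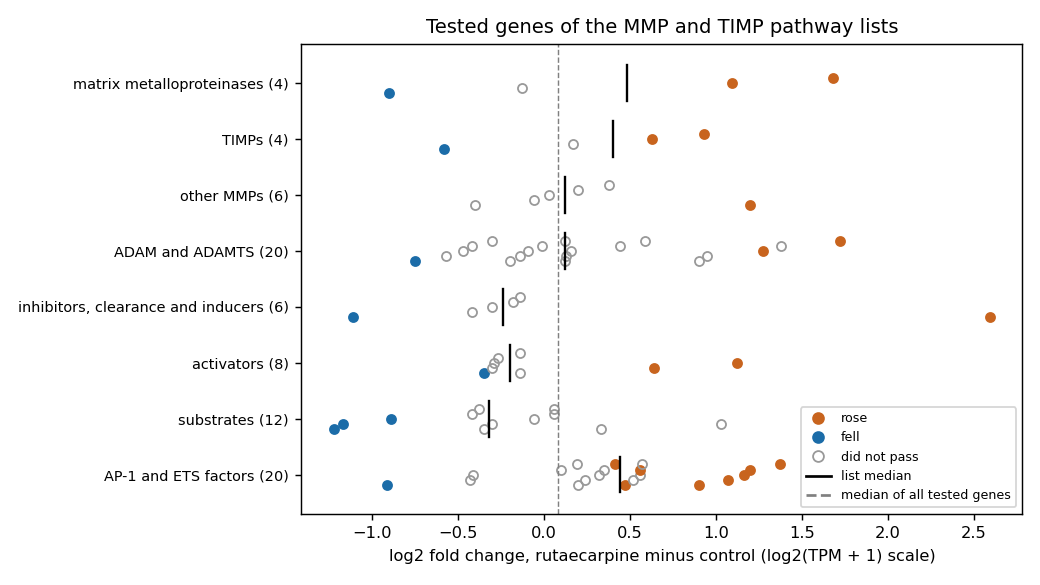
Log2 fold change (rutaecarpine minus control, log2(TPM + 1) scale) of each tested gene in the MMP and TIMP pathway lists, with the number tested beside each name; filled orange points rose, filled blue points fell and open grey points did not pass by limma. Black bars are list medians, from -0.32 for the substrates to 0.48 for the matrix metalloproteinases, and the dashed line is the median of all tested genes at 0.08.

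The genes whose profiles over the 6 libraries lay nearest to that of MMP1, by the Euclidean distance of log2(TPM + 1) after centring each gene on its control mean, were ARMC9 (distance 0.0965), TNFSF14 (0.265) and ENSG00000287365 (0.271). ARMC9 had 13.79, 11.25 and 13.45 TPM in the controls and 44.7, 39.95 and 47.13 TPM after rutaecarpine. Nearest to MMP14 were FOXF1 (0.165), ACP7 (0.176) and IRAK2 (0.189), with log2 fold changes of 1.07, 1.08 and 1.01. These distances describe 6 libraries in 2 groups and follow mainly the difference between the groups.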

How the data were processed

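RNA of U87 cells was sequenced in 6 libraries, 3 per group, on an Illumina NovaSeq. The authors quantified genes with RSEM and deposited TPM values, 1 column per library. Their processing notes name GRCh38.p13, and the aligner, annotation release and strand setting are not given in the sources used here. The notes also name DESeq2 and edgeR, which need counts and were not used here, because TPM keep no depth and no counting error can be given. All 6 value columns were matched to a sample by the labels, and groups came from the sample titles.

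TPM were transformed to log2(TPM + 1) with no scaling between libraries. The 14377 genes that reached 1 TPM in 3 or more libraries were compared with limma 3.58.1 in R 4.3.3, with a mean-variance trend, two-sided, and adjusted by the Benjamini-Hochberg method over all of them at 0.05. The fold change understates low genes. The fit was tried on simulated data with independent noise, its spread taken from the controls other than replicate 3. That trial therefore does not cover the deviation of control replicate 3 or shifts shared by a whole library. The members and lists were chosen with earlier results of these data known. Named genes are the 10 members, list genes that passed (at most 4 per direction), list genes that a small count refers to, and the 3 nearest profiles of the members with the largest change. JUN, JUNB, JUND and ETV5, MMP19 and MMP17, FOSL1, ETS1, ETS2, the named list genes that did not pass and the RNA opposite to TIMP2 were named after their values were seen. Positions, overlaps and transcripts are from GENCODE release 29 on GRCh38, and promoter windows from RefSeq on GRCh38.p14 (5 of 10 members matched). Motifs were searched on both strands of all 34943 windows. The planned search for protein motifs was not run. The results of 1 gene of the AP-1 and ETS list and 1 marker gene are not reported here. Alternatives are given in the closing section. Python 3.11.15, pandas 2.3.3, scipy 1.17.1 and matplotlib 3.10.9 were used for tables and figures.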

Additional observations from a re-analysis of the deposited data

How the results depend on the processing

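Across 14 alternative fits, no tested member changed sign, and MMP1, MMP3 and MMP14 passed in all 14, with log2 fold changes from 1.59 to 1.88, -1.04 to -0.84 and 1.00 to 1.16. MMP2 and TIMP4 passed in none. TIMP1 lost its call in 1 fit, with the libraries centred on their medians. TIMP2 and TIMP3 lost theirs in 8 of 14 each. Higher after rutaecarpine were 3 to 4 members with any single library left out, and lower were 1 to 2, since TIMP2 was lost in 5 of those fits. The count of lower members was also 1 without limma's trend and with no filter on low TPM. Of all genes, 1212 of 14377 and 892 of 29330 passed in these fits. Requiring an absolute log2 fold change above 1 as well left 2 higher and 0 lower members, and 505 of all 14377 genes tested. An adjusted p of at most 0.001 by limma left 0 higher and 0 lower members, and 96 of all genes tested. By limma, 4 higher and 2 lower members had an unadjusted p under 0.05. All genes passing ranged from 428 to 3962 over the fits, against 1335, and was 2652 without control replicate 3 and between 500 and 714 without any other library. Library weights gave the highest count. The cause of these shifts was not tested.

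With the replicate block, the lower members numbered 1 (MMP3), the higher members 3, and all genes passing 428. The labels give the numbers only as names, so the block was kept as an alternative. Deviations of same-numbered libraries had r of 0.116, -0.266 and -0.215 across genes. By these deviations, no library correlated best with the library of its own number in the other group. With 3 libraries per group these values cannot exclude a pairing.

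The log2 ratio of the MMP sum to the TIMP sum differed by -0.84 between the groups, by -0.53 with MMP2 left out, by -0.09 with TIMP1 left out and by 0.21 with both left out, which reversed it. It ranged from -0.97 to -0.69 when each library was left out. Members with an AP-1 motif numbered 1 with the letters TGANTCA, against 0. Without read numbers, the depth behind MMP9 and MMP10 cannot be judged.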
